A study of Mus musculus with 9 samples.

Results

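The cells described here are those of a gate for conventional dendritic cells 1 (cDC1) in ascites, the fluid of the peritoneal cavity, of B6 wild-type mice with tumors of ID8-Def29/Vegf, a mouse ovarian cancer line. They were chosen by their counts of unique molecular identifiers (UMIs) in 1 droplet library. To enter, a barcode needed 500 UMIs and 200 genes or more, with no more than 15% of its UMIs mitochondrial. At least 1% of its UMIs had to come from the major histocompatibility complex (MHC) class II genes H2-Aa, H2-Ab1, H2-Eb1 and Cd74. It could hold at most 1 UMI of C1qa, C1qb and C1qc (macrophages), at most 1 of Krt8, Krt18, Krt19, Wt1 and Upk3b (tumor or mesothelial cells) and at most 1 of Ccr7 and Fscn1 (migratory dendritic cells). It could hold none of Cd79a and Cd79b (B cells) and none of Cd209a, Mgl2 and Clec10a (conventional dendritic cells 2, cDC2). Of the 6442 barcodes that passed the cell filter, 367 met these terms. The cDC1 gate took the 50 with at least 2 UMIs, in sum, of Xcr1, Clec9a, Itgae, Naaa and Irf8. The other 317, with a sum below 2, are called comparison cells. The gated cells made up 0.776% (0.577 to 1.02%, exact Clopper-Pearson 95% interval) of the kept barcodes and 13.6% (10.3 to 17.6%) of the 367. The labels name no treatment for this library and do not say how many mice it came from. With 1 library there is no replicate, and no test between groups was made. All intervals cover counting error only. The series also has 8 bulk libraries of the cultured line, 4 with the iron chelator deferiprone for 12 h and 4 with vehicle, which were not used here.

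Conventional dendritic cells 1 are antigen-presenting cells that take up material from dying cells and load its peptides on MHC class I molecules, a route called cross-presentation, by which they prime CD8+ T cells. In mice they need the transcription factors Irf8 and Batf3, carry the chemokine receptor Xcr1 and sense cell corpses with the lectin receptor Clec9a. Conventional dendritic cells 2 present mainly on class II, and plasmacytoid dendritic cells, which also express Irf8, are known for interferon production.

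The gate rested on sparse genes. In the 50 cells, Xcr1 had 8 UMIs in 8 cells, Clec9a 8 UMIs in 7 cells and Itgae, the integrin chain CD103, 8 UMIs in 5 cells. Naaa, a lysosomal amidase, had 56 UMIs in 34 cells, and Irf8 had 68 UMIs in 37 cells. Naaa and Irf8 thus carried most of the selection: 17 cells held a UMI of Xcr1, Clec9a or Itgae, while 33 entered on Naaa or Irf8 alone. Of these 33, 16 had both genes, 6 had Naaa alone and 11 had Irf8 alone. The marker sum was 2 in 27 cells, 3 in 7, 4 in 11, 5 in 2, 6 in 2 and 7 in 1. Just outside the threshold, 49 comparison cells had a sum of 1, and the other 268 had none of the 5 genes. The library as a whole held few UMIs of the defining receptors, with 10 of Xcr1, 19 of Clec9a and 24 of Itgae in all kept barcodes. The 3079 cells of a tumor gate (at least 5 UMIs of the keratin, Wt1 and Upk3b set) had 0 UMIs of Xcr1 and Itgae and 0.110 CPM of Clec9a, where CPM scales a gene's UMIs to the total of the gate. These values chose the cells and are given as a description. The same holds for every difference between the gated and the comparison cells below, which comes from the contrast that the gate made.

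The 50 cells were not uniform. A UMI of 29 further cDC1 genes, described below, was found in 45 of them (90%) and in 220 of 317 comparison cells (69.4%). A cDC2 gate, defined below, had one in 23 of 37 cells (62.2%), so a single UMI of this list did not set cDC1 apart. The gated cells were also deeper than the comparison cells, and the share at equal depth was not computed. Batf3 had a UMI in 17 of the 50 only. In 4 cells of 748 to 895 UMIs, the shallowest of the gate, Siglech, Ly6d, Cox6a2 and Klk1, which mark plasmacytoid dendritic cells, had 4, 9, 7 and 3 UMIs in all. Each of the 4 held exactly 2 UMIs of Irf8 and none of Naaa, Xcr1, Clec9a or Itgae. The other 46 cells had 0 UMIs of all 4 plasmacytoid genes. Cst3, which encodes the protease inhibitor cystatin C, stood at 1214 CPM (331 to 3107, exact Poisson 95% interval) in the 4 cells. It stood at 27828 CPM (26775 to 28911) in the other 46. Batf3 and Id2, transcription factors of cDC1, had 0 UMIs in the 4 cells. A further cell, of 1040 UMIs, had 38.5 UMIs of Cst3 per 10000 and none of the plasmacytoid genes. The plasmacytoid markers Bst2, with 15 of its 26 UMIs, and Ccr9, with 4 of its 6, lay largely in the 4 cells. Ccl4 and Bst2 are given with and without the 4 cells below. In the comparison group, 11 cells also held 2 or more UMIs of the 4 plasmacytoid genes. Counts of genes past 2-fold are given below with the 4 cells and these 11 left out together.

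**Figure D1:**
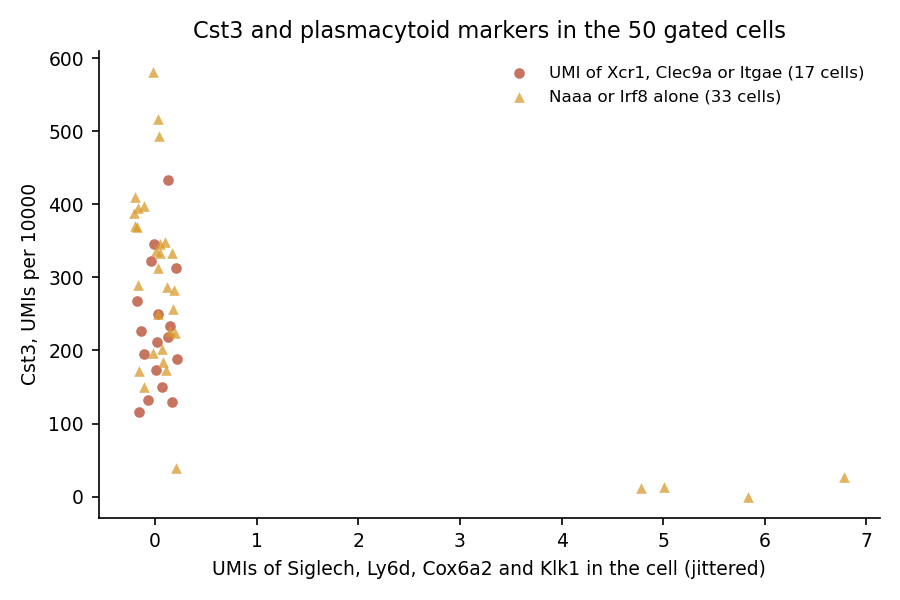
Cst3 in UMIs per 10000 UMIs of the cell (vertical axis) against the summed UMIs of the plasmacytoid markers Siglech, Ly6d, Cox6a2 and Klk1 (horizontal axis, jittered) for each of the 50 gated cells. Circles mark the 17 cells with a UMI of Xcr1, Clec9a or Itgae and triangles the 33 that entered on Naaa or Irf8 alone. The 4 cells with plasmacytoid UMIs are all triangles near the bottom, and the other 46 stand at 0 plasmacytoid UMIs.

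Markers of lymphoid, granulocytic and stromal cells were scarce. In the gated and the comparison cells, B and plasma cell genes (9 in the table) had 2 and 40 UMIs (20.4 and 98.9 CPM). T cell and natural killer cell genes (15) had 3 and 21 UMIs (30.6 and 51.9 CPM), and neutrophil, mast cell and eosinophil genes (13) had 0 and 7 UMIs. The genes Ighm, Ighd, Igkc, Iglc1, Iglc2 and Iglc3 of the first list and Trac, Trbc1 and Trbc2 of the second were not in the table. Scarcity of lymphoid markers was thus read without them. Fibroblast and endothelial genes (10) had 0 UMIs in the gated cells, under the limit of 30.6 CPM that a count of 0 allows (taken as 3 counts), and 19 in the comparison cells. Tumor and mesothelial genes beside those of the rule (16) were more frequent, with 78 UMIs (796 CPM) in 33 of 50 gated cells and 426 UMIs (1054 CPM) in 224 of 317 comparison cells. Gstm1 held 52 of the 78 UMIs, while Msln, Muc16, Krt7 and Epcam had none in the gated cells. The gated cells were deeper, with 748 to 3117 UMIs and a median of 2016, than the comparison cells with 500 to 3678 and a median of 1218. The gated cells had a median of 656.5 genes and the comparison cells 480. Thinned to 500 UMIs each, the gated cells had a median of 246 genes and the comparison cells 259. Free RNA, estimated from 8 tumor and mesothelial markers against barcodes of 1 to 50 UMIs, made up 10.5% (4.18 to 22.1%) of UMIs in the gated cells and 14.6% (10.1 to 20.5%) in the comparison cells. These intervals overlapped. The part of depth and free RNA in the differences below was not tested beyond the thinned and free RNA values given. Scrublet marked 0 gated and 3 comparison cells as doublets, of 89 (1.38%) over all kept barcodes.

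Cst3 (ENSMUSG00000027447) was the most abundant gene of the gated cells after Malat1, ahead of Cd74 at 19268 CPM, and it was among the 25 leading genes by ratio. Its level was 26932 CPM (25915 to 27980) in the gated cells and 8984 CPM (8694 to 9281) in the comparison cells, a ratio of 2.998 (2.85 to 3.15, exact conditional binomial 95% interval). Per cell it had a median of 249.8 UMIs per 10000 in the gated cells, with a range of 0 to 581, against a median of 40.2 and a range of 0 to 449.7 in the comparison cells. The ranges overlapped, but the lower quartile of the gated cells, 175.7, lay above the upper quartile of the comparison cells, 96.2. With each cell thinned to 500 UMIs, 49 of 50 gated cells (98.0%) and 252 of 317 comparison cells (79.5%) had a Cst3 UMI. Free RNA would give 108.5 CPM of Cst3 in the gated cells. Tmsb10, which encodes an actin-binding thymosin, stood at 7348 CPM in the gated cells and 3671 CPM in the comparison cells, a ratio of 2.002 (1.83 to 2.19). Its per-cell medians were 68.2 and 30.7 UMIs per 10000.

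**Figure D2:**
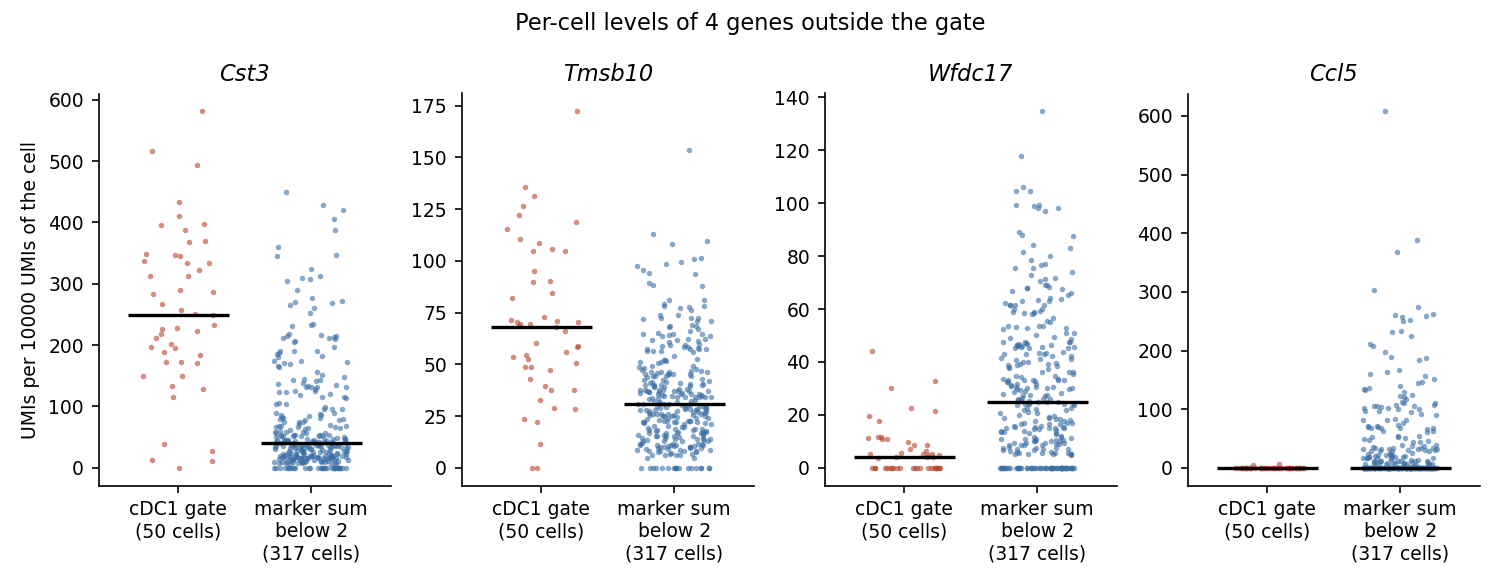
Per-cell levels of Cst3, Tmsb10, Wfdc17 and Ccl5 in UMIs per 10000 UMIs of the cell (vertical axes), for the 50 cells of the cDC1 gate (left in each panel) and the 317 comparison cells with a marker sum below 2 (right). Each point is a cell and the bars are medians. Cst3 and Tmsb10 sit higher in the gated cells, with medians of 249.8 and 68.2, while Ccl5 is at 0 in 48 of the 50 gated cells.

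Among 1851 genes with at least 20 UMIs over both groups, rule genes left out, 88 (4.75%) were higher in the gated cells by 2-fold or more and 262 (14.2%) were lower by 2-fold or more. Of all these genes 21 had 0 UMIs in the gated cells, and with these set to the limit of 3 counts 253 (13.7%) were lower. The median log2 ratio of these genes was -0.04, with quartiles of -0.51 and 0.33. No replicate stands behind these shares, and they serve as the background for the counts of gene lists below. Leading genes higher in the gated cells were taken by their ratio with 5 CPM added to each level. BC028528, which the files give by this clone-derived symbol, had 28 UMIs in the gated cells against 35 in the comparison cells, a ratio of 3.30 (1.93 to 5.59). Rnase6, a secreted ribonuclease with antimicrobial activity, had 20 against 25 UMIs and a ratio of 3.30 (1.74 to 6.19). Aif1, an actin-bundling protein of myeloid cells, stood at 602 CPM in the gated cells and 215 CPM in the comparison cells, a ratio of 2.80 (1.98 to 3.94). Ahr, the aryl hydrocarbon receptor, had 25 against 37 UMIs and a ratio of 2.79 (1.61 to 4.76).

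Others of the leading 25 encode enzymes or mitochondrial proteins. Khk (ketohexokinase) had a ratio of 2.32 (1.39 to 3.80), Ckb (brain-type creatine kinase) 2.27 (1.44 to 3.53) and Dctpp1 (a nucleotide pyrophosphatase) 2.57 (1.46 to 4.43). Cycs (cytochrome c) stood at 469 CPM in the gated cells and 210.2 CPM in the comparison cells, a ratio of 2.23 (1.53 to 3.23). Slc25a5, a mitochondrial ADP/ATP carrier, stood at 510.3 CPM in the gated cells and 237 CPM in the comparison cells, a ratio of 2.15 (1.495 to 3.06). The leading 25 were picked from 456 candidates by their ratio in these same counts, so intervals that lie above 1 partly follow from that choice. Cell-to-cell and animal-to-animal variation cannot be told apart from these differences in 1 library.

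A list of 30 cDC1 genes beside those of the rule had 29 in the table, and 25 of these had a UMI in the gated cells. Only 7 had enough UMIs to be counted; 4 were higher by 2-fold or more (4.75% of all genes tested), 1 was lower (14.2% of all), and their median log2 ratio was 1.15 (-0.04 over all 1851 genes). Batf3 had 20 UMIs in 17 gated cells and 36 UMIs in 29 comparison cells, a ratio of 2.29 (1.26 to 4.07). Ifi205, an interferon-inducible gene of the Pyhin family, had 14 against 15 UMIs and a ratio of 3.85 (1.72 to 8.56). Cd24a, a surface glycoprotein that marks mouse cDC1, had 15 against 25 UMIs, a ratio of 2.48 (1.21 to 4.88). Ppt1, a lysosomal thioesterase, had 20 against 29 UMIs, a ratio of 2.85 (1.53 to 5.21). The member below 0.5 was Tbc1d4, a Rab GTPase-activating protein, at 0.419 (0.217 to 0.742). Random thinning of each cell to 500 UMIs left too few UMIs of these genes to read. In 1 draw 7 gated and 14 comparison cells had a Batf3 UMI, and in another 2 and 11. For Ifi205 the draws gave 4 and 4 cells, then 1 and 6. For Cd24a they gave 1 and 10, then 7 and 9, and for Ppt1 2 and 11, then 6 and 7. The exact expected share of cells with a UMI at that depth was 9.26% of gated and 4.04% of comparison cells for Batf3, and 6.56% and 1.31% for Ifi205. It was 7.37% and 2.68% for Cd24a, and 8.79% and 2.95% for Ppt1.

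Several cDC1 genes were too sparse for the count. Rab7b, a Rab GTPase of late endosomes, had 12 UMIs in the gated cells and 4 in the comparison cells, a ratio of 12.4 (3.75 to 52.7). Sept3, a septin, and Gcsam each had 9 against 6 UMIs and a ratio of 6.19 (1.97 to 21.1). Cxx1a had 11 against 5 UMIs, a ratio of 9.08 (2.91 to 33.3), and Hepacam2 8 against 4, a ratio of 8.25 (2.21 to 37.4). Pdia5, a protein disulfide isomerase, had 5 UMIs in the gated cells and 0 in the comparison cells. Cadm1, an adhesion molecule used to gate cDC1 across species, had 5 against 4 UMIs. For Wdfy4, which cDC1 need for cross-presentation of cell-associated antigen, the levels were 184 CPM in the gated cells and 129 CPM in the comparison cells, a ratio of 1.43 (0.786 to 2.48) whose interval included 1. Id2 had a ratio of 1.27 (0.947 to 1.69). Toll-like receptors of cDC1 were near the detection limit: Tlr3, a sensor of double-stranded RNA, had 2 UMIs in each group, and Tlr11, a sensor of profilin, had 1 and 0.

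The promoters of leading and cDC1 genes were searched for the core of the interferon-stimulated response element, the site of Irf family proteins, read as 2 GAAA blocks with 2 bases of any kind between them, on both strands and with overlapping matches counted. In windows of the 250 bases before the gene start (RefSeq, GRCm38.p6), 2.98% of 32851 windows held it, which came to 936 of 27025 genes (3.46%). Of the 25 leading higher genes 23 were matched, and 3 of the 23 held it: Aif1, Bst2 and Rnase6. Bst2 had 15 UMIs in the 4 cells with plasmacytoid markers and 11 in the other 46 gated cells. Among the 25 leading lower genes 23 were matched and 2 held it, Commd6 and Lamp1. Of the 25 detected cDC1 list genes 19 were matched, and Ifi205 and Tlr11 held it. The AP-1 core TGANTCA, the kind of site bound by Batf family dimers, was in 6.75% of windows and 7.82% of genes. It was in 1 of the 23 leading higher genes, Aprt, 1 of the 23 leading lower genes, Ccl9, and 1 of the 19 cDC1 list genes, Havcr2. The windows of Rnase6, Aif1 and Ifi205, which hold a match, and of Cst3, the most abundant leading gene, which holds none, are shown 5′ to 3′ on the gene's strand, with the match in capitals. The Rnase6 window lies at chr14:51128814-51129063 on the plus strand, is 1 of 3 for that gene, and its match starts 47 bases before the gene start on the reverse strand. The others lie on the minus strand, with Aif1 at chr17:35176053-35176302 (match at 157 bases), Ifi205 at chr1:174031756-174032005 (match at 134 bases) and Cst3 at chr2:148875513-148875762. A match in these letters is a description and not evidence of binding.
Rnase6: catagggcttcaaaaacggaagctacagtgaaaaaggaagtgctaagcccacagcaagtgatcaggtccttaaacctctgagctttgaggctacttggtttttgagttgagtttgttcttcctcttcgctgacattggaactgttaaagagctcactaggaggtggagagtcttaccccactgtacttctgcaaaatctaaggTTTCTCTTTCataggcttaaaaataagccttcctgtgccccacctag
Aif1: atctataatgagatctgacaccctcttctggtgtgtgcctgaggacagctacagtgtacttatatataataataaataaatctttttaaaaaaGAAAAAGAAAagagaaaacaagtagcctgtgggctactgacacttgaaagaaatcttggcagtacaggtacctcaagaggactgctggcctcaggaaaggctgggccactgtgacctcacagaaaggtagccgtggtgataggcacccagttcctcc
Ifi205: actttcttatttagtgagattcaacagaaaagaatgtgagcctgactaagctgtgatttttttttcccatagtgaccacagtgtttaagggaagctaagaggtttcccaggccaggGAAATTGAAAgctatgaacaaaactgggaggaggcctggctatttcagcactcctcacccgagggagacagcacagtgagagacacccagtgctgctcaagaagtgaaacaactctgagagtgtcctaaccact
Cst3: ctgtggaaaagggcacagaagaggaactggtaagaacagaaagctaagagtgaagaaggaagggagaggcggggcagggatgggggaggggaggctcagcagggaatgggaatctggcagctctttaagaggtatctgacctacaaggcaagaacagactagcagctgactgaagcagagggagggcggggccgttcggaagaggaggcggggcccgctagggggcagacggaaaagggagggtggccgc

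Of 32 genes for class I processing and cross-presentation, 19 were counted. By 2-fold or more, 3 were higher (4.75% of all genes) and 2 were lower (14.2% of all), and the median log2 ratio was -0.06. All 3 higher genes belong to the proteasome. Psmb8, a catalytic subunit of the immunoproteasome, which trims proteins to class I peptides, had UMIs in 44 of 50 gated and 119 of 317 comparison cells. It stood at 918 CPM in the gated cells (739 to 1129) and 403 CPM in the comparison cells (344 to 470.0), a ratio of 2.28 (1.74 to 2.96). With each cell thinned to 500 UMIs, 14 of 50 gated cells (28%, 16.2 to 42.5%) and 51 of 317 comparison cells (16.1%, 12.2 to 20.6%) had a Psmb8 UMI in 1 draw, and these intervals overlapped. The exact expected shares were 38.6% and 16.5%. Psmb9, another such subunit, stood at 398 CPM in the gated cells and 156 CPM in the comparison cells, a ratio of 2.55 (1.67 to 3.87). Psme1, part of the proteasome activator PA28, had a ratio of 2.05 (1.504 to 2.76), and its partner Psme2 one of 1.36 (0.827 to 2.16). Outside that list, the proteasome genes Psma3 and Pomp, a proteasome assembly factor, were among the leading 25 with ratios of 1.98 (1.16 to 3.28) and 1.91 (1.43 to 2.53).

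Genes of the class I molecule itself had ratios below 1. H2-D1 stood at 725 CPM in the gated cells and 789 CPM in the comparison cells, a ratio of 0.918 (0.700 to 1.19), and H2-K1 had a ratio of 0.765 (0.492 to 1.15). B2m, the class I light chain, was at 1674 CPM in the gated cells and 2058 CPM in the comparison cells, a ratio of 0.813 (0.684 to 0.963). The peptide transporter genes Tap1 and Tap2 had 5 and 4 UMIs in the gated cells and 14 and 10 in the comparison cells, so a difference was not detectable at this depth. Sec61b and Sec61g, of the translocon that has been linked to antigen export, had ratios of 1.06 (0.811 to 1.36) and 0.961 (0.780 to 1.18). The list members at 0.5 or below were Rac2, a small GTPase of phagocytes, at 0.441 (0.213 to 0.822) and Cybb, a subunit of the phagosomal NADPH oxidase, at 0.485 (0.125 to 1.36).

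Class II genes, part of the rule, made up 4.15% of UMIs in the gated cells and 5.66% in the comparison cells. Of 17 genes for class II loading, 13 were counted, with a median log2 ratio of -0.59. By 2-fold or more, 0 were higher (4.75% of all genes) and 1 was lower (13.7% on the same terms), H2-DMb2. Lgmn, at 0 UMIs in the gated cells, is taken here at the limit of 3 counts. The H2-DM peptide exchange genes were split: H2-DMb1 stood at 592 CPM in the gated cells and 331 CPM in the comparison cells, a ratio of 1.79 (1.29 to 2.45), and H2-DMa had a ratio of 1.29 (1.04 to 1.58). H2-DMb2 stood at 112 CPM in the gated cells and 284 CPM in the comparison cells, a ratio of 0.395 (0.192 to 0.733). H2-DMb1 and H2-DMb2 are close copies of each other, and how the counting assigned reads between them was not tested. H2-Oa, a modulator of H2-DM, had a ratio of 0.636 (0.421 to 0.932). The endosomal enzymes Ctss, which cleaves the invariant chain, and Ifi30, a thiol reductase, had ratios of 0.559 (0.416 to 0.738) and 0.519 (0.355 to 0.740). Lgmn, a lysosomal endopeptidase, had 0 UMIs in the gated cells and 23 in the comparison cells, at least 1.86-fold lower against that limit.

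Lysosomal and efferocytosis genes went both ways. Of 25 list genes, 14 were counted. By 2-fold or more, 2 were higher (4.75% of all genes) and 5 were lower (14.2% of all). The median log2 ratio of the 14 was -0.24. Ppt1, given above, was among the higher ones. Psap, the saposin precursor, stood at 1388 CPM in the gated cells and 782 CPM in the comparison cells, a ratio of 1.78 (1.44 to 2.18), and Npc2, a cholesterol carrier, had a ratio of 1.51 (1.13 to 1.998). Ctsc, Ctsd and Lamp1 had 2, 1 and 1 UMIs in the gated cells against 47, 40 and 40 in the comparison cells, ratios of 0.176 (0.0207 to 0.670), 0.103 (0.00255 to 0.609) and 0.103 (0.00255 to 0.609).

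**Figure D3:**
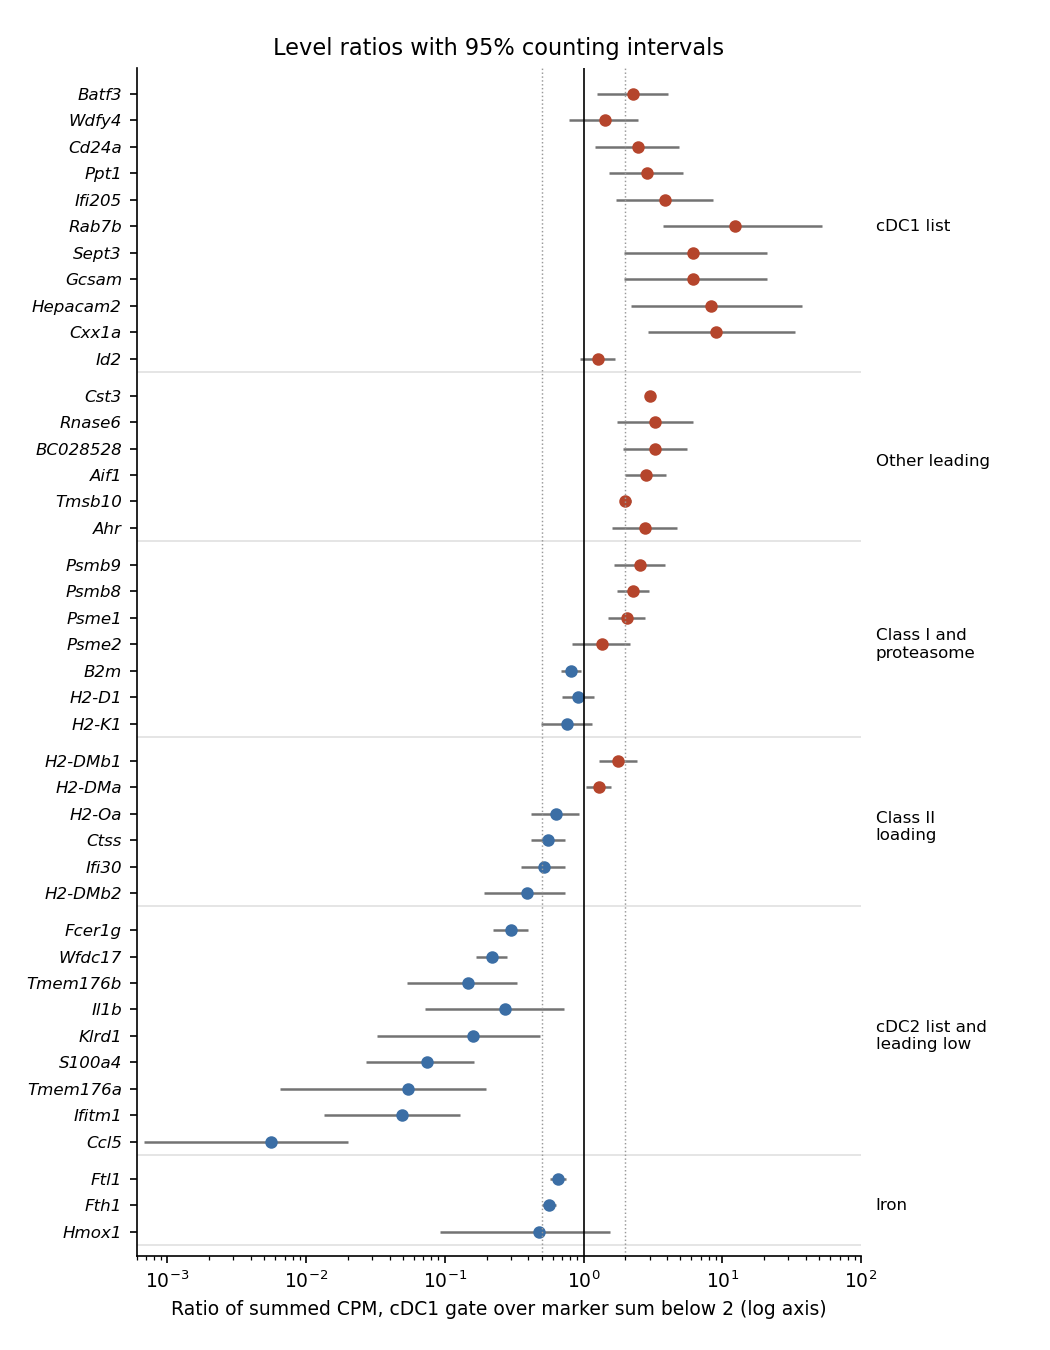
Ratio of the summed level in the 50 gated cells over that in the 317 comparison cells (horizontal log axis) for 42 genes grouped by role. Points are ratios, lines are exact conditional 95% intervals for counting error, and dotted lines mark ratios of 0.5 and 2. The immunoproteasome genes Psmb8 and Psmb9 lie to the right of 2, H2-D1 and H2-K1 near 1, and Ccl5 is farthest to the left at 0.00558.

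Ccl5 (ENSMUSG00000035042), a chemokine that attracts T cells, had the lowest ratio of the 25 leading lower genes, with 2 UMIs in 2 of 50 gated cells against 1479 UMIs in 153 of 317 comparison cells. Its level was 20.4 CPM (2.47 to 73.7) in the gated cells and 3658 CPM (3474 to 3850) in the comparison cells, a ratio of 0.00558 (0.000675 to 0.0202). Free RNA would give 10.99 CPM of Ccl5 in the gated cells, within the interval of their level. In the tumor gate, with a median of 5466 UMIs, 93 of 3079 cells had a Ccl5 UMI. After thinning to 500 UMIs, 1 gated cell and 127 comparison cells (40.1%) had one. S100a4, a calcium-binding protein used as a cDC2 marker, had 6 against 334 UMIs, a ratio of 0.0741 (0.0270 to 0.163). Ifitm1, an interferon-induced membrane protein, had 4 against 333 UMIs, a ratio of 0.0496 (0.0134 to 0.128). Tmem176a and Tmem176b, a pair of ion channel genes of dendritic cells, had ratios of 0.0539 (0.00647 to 0.198) and 0.148 (0.0536 to 0.330). Klrd1, which encodes CD94, had 3 against 77 UMIs, a ratio of 0.161 (0.0324 to 0.488).

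Of the 22 cDC2 genes beside those excluded by the rule, 9 were counted, 4 of them with 0 UMIs in the gated cells. With these 4 set to the limit of 3 counts, 0 were higher and 5 were lower by 2-fold or more (13.7% of all genes on the same terms), and the median log2 ratio was -1.28. Fcer1g, the Fc receptor gamma chain, stood at 531 CPM in the gated cells and 1761 CPM in the comparison cells, a ratio of 0.301 (0.223 to 0.400). Itgam (CD11b), Ltb, Tnip3 and Cd72 had 0 UMIs in the gated cells and 30, 52, 30 and 23 in the comparison cells. Against the limit of 3 counts they were at least 2.42-fold, 4.20-fold, 2.42-fold and 1.86-fold lower. Clec12a, in the same list, had a ratio of 1.26 (0.658 to 2.29). Of 22 migratory dendritic cell genes 7 were counted, with 0 higher (4.75% of all genes) and 3 lower (14.2%), Ccl5, Samsn1 and Traf1. Cdkn1a, a cell cycle inhibitor, and Ccrl2, a chemerin receptor, also had 0 UMIs in the gated cells, against 83 and 37 in the comparison cells, at least 6.71-fold and 2.99-fold lower. Of 11 pan-dendritic genes 8 were counted, with 1 higher (4.75% of all genes), Cst3, and 1 lower (14.2%), Itgax (CD11c), from 2 against 23 UMIs. Flt3, Dpp4, Spi1 and Ccr2 had ratios of 1.06 to 1.65 with intervals that included 1.

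The monocyte and macrophage lists stood at 2194 and 633 CPM in the gated cells, against 2352 and 2060.4 CPM in the comparison cells. Of 14 monocyte genes 7 were counted, with 0 higher (4.75% of all genes) and 4 lower (14.2% of all) by 2-fold or more. Wfdc17, a gene of activated macrophages outside these lists, stood at 674 CPM in the gated cells and 3097 CPM in the comparison cells, a ratio of 0.217 (0.167 to 0.279). Ccl9, a monocyte chemokine, had 2 against 93 UMIs, a ratio of 0.0887 (0.0106 to 0.330). Plac8, also a monocyte list gene, was at 1347 CPM in the gated cells and 683 CPM in the comparison cells, a ratio of 1.97 (1.59 to 2.44). Of 18 macrophage genes 6 were counted, with 0 higher and 4 lower, against the same shares of all genes. Apoe stood at 439 CPM in the gated cells and 1383 CPM in the comparison cells, and 275 CPM in the gated cells is what free RNA would give. A gated cell of 1040 UMIs, the one with little Cst3 named above, held 29 of the 62 macrophage list UMIs and 26 of the 43 Apoe UMIs. Without it the list stood at 340.4 CPM and Apoe at 175 CPM in the gated cells. Lyz2 had a ratio of 0.710 (0.521 to 0.9496), and its 54 UMIs in the gated cells included 8 in that cell.

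Haemoglobin genes were lower in the gated cells, at 0.0643% of UMIs, against 1.66% in the comparison cells. Hbb-bs had a ratio of 0.0459 (0.0321 to 0.0637). In the comparison cells 94.4% of haemoglobin UMIs lay in 8 cells with 20 or more each, and no gated cell had more than 4. The median cell had 0.0515% haemoglobin UMIs in the gated cells and 0.0865% in the comparison cells.

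Cytokine genes were mostly sparse. Of 28 genes 8 were counted, with 1 higher (4.75% of all genes) and 4 lower (14.2% of all) by 2-fold or more. Ccl4, a chemokine for T cells and monocytes, had 37 against 74 UMIs and a ratio of 2.06 (1.35 to 3.10). This rested on few cells: the 4 plasmacytoid-marked cells held 9 of the 37 UMIs, and the other 46 stood at 296 CPM (196 to 427) against 183 CPM in the comparison cells. Cells with a marker sum of 3 or more held 1 Ccl4 UMI, and their log2 ratio was -2.90. Bst2 had a ratio of 2.19 (1.31 to 3.59), but without the 4 cells it stood at 116 CPM (58.0 to 208) against 121 CPM in the comparison cells. Il1b, an inflammatory cytokine, had 4 against 61 UMIs, a ratio of 0.271 (0.0714 to 0.729), and Ccl6 a ratio of 0.477 (0.313 to 0.702). Il12b, a subunit of interleukin 12, had 0 UMIs in the gated cells and 2 in the comparison cells, and Cxcl9 had 0 in both, so these products of activated cDC1 were not detectable at this depth. Cxcl16 had 10 against 26 UMIs, a ratio of 1.59 (0.683 to 3.40).

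Receptor, costimulatory and interferon genes were sparse too. Of 24 chemokine and cytokine receptor genes 6 were counted, with 0 higher (4.75% of all genes) and 1 lower (14.2%). The lower one, Il2rg, had 0 against 28 UMIs. Cxcr3, a receptor for interferon-induced chemokines, had 5 UMIs in the gated cells and 3 in the comparison cells. None of the 4 counted costimulation and checkpoint genes passed 2-fold; Cd52 had a ratio of 1.31 (1.17 to 1.45), Cd47 one of 1.68 (1.02 to 2.68) and the costimulator Cd86 one of 1.43 (0.589 to 3.15). Cd274, which encodes PD-L1, had 0 and 6 UMIs. Of 29 interferon genes 7 were counted, with 1 higher, Bst2, and 2 lower, against the same shares of all genes. The lower ones were Ifitm1 (given above) and Ifi27l2a, which had 9 against 90 UMIs. Ifitm3 had a ratio of 1.05 (0.885 to 1.24). Of the innate sensing genes 3 were counted, and Pycard, the inflammasome adaptor ASC, was at 0.413 (0.192 to 0.791).

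The series is titled for iron chelation, so genes of iron handling were examined. Of 23 iron genes, 7 were counted, with 0 higher (4.75% of all genes) and 1 lower (14.2% of all) by 2-fold or more. The lower one was Hmox1, from 3 against 26 UMIs, a ratio of 0.476 (0.0922 to 1.55). Fth1, the ferritin heavy chain, stood at 3388 CPM in the gated cells and 6020 CPM in the comparison cells, a ratio of 0.563 (0.5003 to 0.631). Per cell its median was 33.0 UMIs per 10000 in the gated cells and 55.9 in the comparison cells, with overlapping ranges. Ftl1, the light chain, had a ratio of 0.658 (0.577 to 0.747). Free RNA would give 794 CPM of Fth1 in the gated cells and 1100.2 CPM in the comparison cells. Hfe and Pcbp2, which regulate iron uptake and chaperone iron, had ratios of 1.23 (0.671 to 2.15) and 1.22 (0.778 to 1.86).

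Actin and adhesion genes were well covered. Of 32 list genes 28 were counted, with 2 higher (4.75% of all genes), among them Tmsb10, and 3 lower (14.2%), Itgam, Itgax and Rac2. The median log2 ratio of the 28 was 0.22. Tmsb4x stood at 16788 CPM in the gated cells and 12085 CPM in the comparison cells, a ratio of 1.39 (1.31 to 1.47), and Lgals3 had a ratio of 1.49 (1.14 to 1.92). Lgals1, another galectin, had a ratio of 0.636 (0.563 to 0.716). None of 5 counted cell cycle genes or 4 counted survival genes passed 2-fold, and Mki67 and Top2a, genes of dividing cells, had 1 UMI each in the gated cells.

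Cst3 was higher at each step of the marker sum, while other genes did not follow it throughout. The median depth moved with the sum, at 1176, 1625, 1843 and 2199 UMIs for sums of 0, 1, 2 and 3 or more, and its part in these levels was not tested. In that order Cst3 stood at 6803, 18464, 25003 and 28834 CPM, and Ccl5 at 4369, 569, 20.6 and 20.3 CPM. Psmb8 stood at 377, 516, 884 and 952 CPM. For these 3 genes the 49 cells at a sum of 1, just outside the gate, lay between the cells with none of the markers and those inside. Batf3 stood at 79.1, 132, 226 and 182 CPM, Wdfy4 at 100.4, 251, 247 and 122 CPM and Plac8 at 475, 1587, 1480.4 and 1216 CPM. Between sums of 2 and of 3 or more, the intervals of Ccl5, Psmb8, Batf3, Wdfy4 and Plac8 overlapped. Within the gate, the 17 cells with Xcr1, Clec9a or Itgae had 23481 CPM of Cst3, and the 33 without had 28925 CPM. Psmb8 stood at 892 CPM in the 17 cells and 934 CPM in the 33. The 4 cells with plasmacytoid markers and the cell of 1040 UMIs, all low in Cst3, had a marker sum of 2 and lay among the 33. Levels at that sum and in the 33 were not computed without them, so their part in the last step of Cst3 was not tested.

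Cst3 was higher in these cells than in the other gates examined in the library. A cDC2 gate (at least 2 UMIs of Cd209a, Mgl2 and Clec10a, 37 cells) stood at 6714 CPM and a macrophage gate (at least 5 UMIs of the C1q genes, 966 cells) at 3060 CPM, against 26932 CPM in the cDC1 gate. Psmb8 stood at 918 CPM in the cDC1 gate, 374 CPM in the cDC2 gate and 235 CPM in the macrophage gate. Batf3 stood at 204 CPM in the cDC1 gate, 35.6 CPM in the cDC2 gate and 34.2 CPM in the macrophage gate. S100a4 was lowest in the cDC1 gate, with 61.2 CPM there, 1264 CPM in the cDC2 gate and 396 CPM in the macrophage gate. Fth1 was at 3388 CPM in the cDC1 gate, 7052 CPM in the cDC2 gate and 24537 CPM in the macrophage gate.

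**Figure D4:**
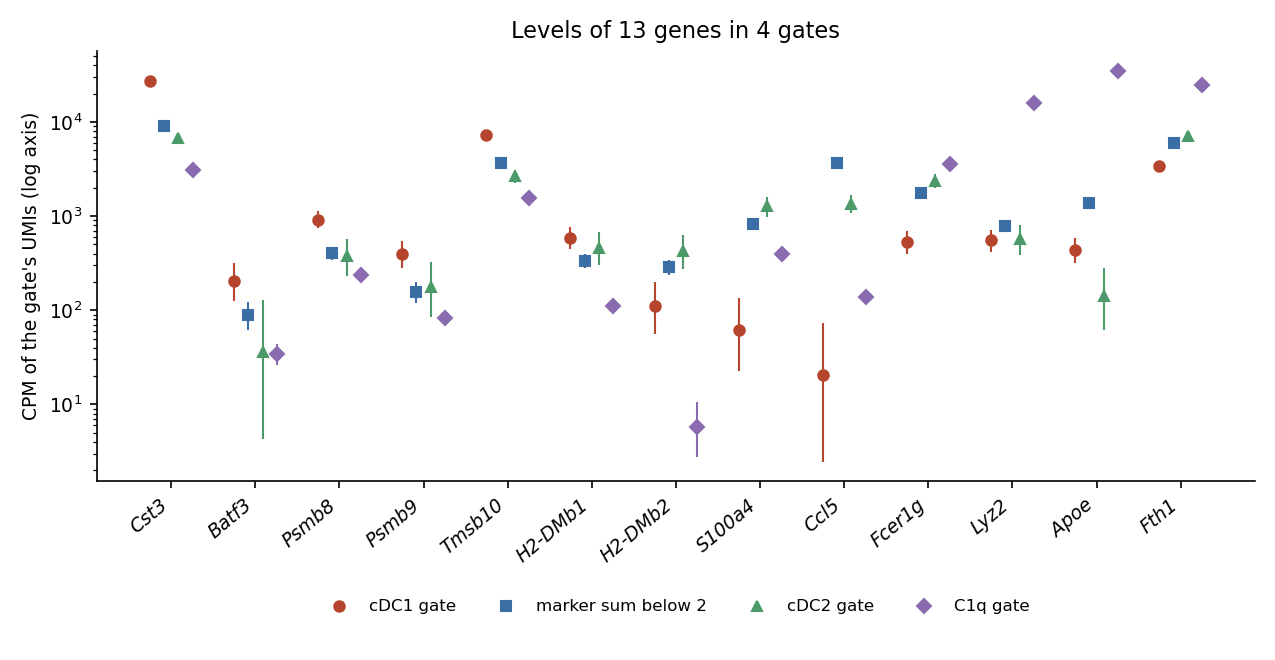
Levels of 13 genes in CPM (vertical log axis) in the cDC1 gate (circles), the comparison cells (squares), the cDC2 gate (triangles) and the C1q macrophage gate (diamonds), with exact Poisson 95% intervals as lines. Cst3, Batf3, Psmb8 and Psmb9 are highest in the cDC1 gate, while its S100a4 and Ccl5 are the lowest of the 4 gates.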

How the data were processed

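Single-cell RNA from 1 ascites library was analysed. The values deposited by the authors are raw UMI counts (10x Genomics, per the labels) with no cell selection applied (27998 genes, 737280 barcodes). No source used here names the aligner or build. Cells were gated on the counts as described. UMIs were summed per gate and expressed as CPM with exact Poisson intervals, ratios have exact conditional binomial intervals and shares Clopper-Pearson intervals, all at 95%. The ratio computation was tested on simulated data. A gene was counted with at least 20 UMIs over both groups and called past 2-fold. Named genes were the rule genes, list genes with at least 10 UMIs, the 25 leading genes in each direction (at least 20 UMIs and 10% of cells in the higher group, 5 CPM added) and the 10 most abundant genes. Low-count list genes named beside these and the split by plasmacytoid markers were chosen after their values were seen. The cells and gene lists were chosen with earlier results of these data known. Symbols held by more than 1 gene (56) were kept apart by a suffix. Setting genes at 0 to 3 counts and the exact expected shares at 500 UMIs (hypergeometric) were added after seeing the data. Some members of the gene lists are counted but not reported by name here. Promoter windows came from RefSeq (GRCm38.p6). Tools were Python 3.11.15, numpy 2.4.6, scipy 1.17.1, pandas 2.3.3, scanpy 1.11.5 (Scrublet) and matplotlib 3.10.9. The 8 columns of the bulk table carry names that match no sample label and were not used. Alternatives to the gate, depth and comparison cells are listed in the closing section.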

Additional observations from a re-analysis of the deposited data

Results flagged for a closer look

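Barcodes below the cell filter also met the gate. Of 4339 barcodes with at least 200 but under 500 UMIs, 158 met the class II and exclusion terms, and 2 of these had at least 2 UMIs of the 5 cDC1 marker genes. The 2 barcodes held 725 UMIs in all, 20 of them Cst3, which is 27586 CPM (16850 to 42605) and above the limit of 3 counts. The other 156 barcodes had 101 Cst3 UMIs, 1874 CPM (1526 to 2277). They were noticed because they lie in data that no comparison used, and the role of free RNA in them was not tested.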

How the results depend on the processing

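No paired analysis was possible because all cells came from 1 library and the bulk columns carry no sample names. Over 18 alternatives, 1182 of 1206 log2 ratios of 67 named genes kept their direction, 82 moved beyond their interval and 9 of genes past 2-fold reversed. Another 14 changes of sign were in 9 genes under 2-fold. Among them H2-K1, H2-D1, B2m and Ftl1 turned positive, at 0.48, 0.84, 0.18 and 0.14, when the gate followed thinning to 500 UMIs. That gate read all its terms, exclusions included, from the thinned counts, while levels came from the full counts. Both groups therefore held other cells than the main ones, with 12 gated cells of 533. Flt3 stood at -3.77 in 1 draw with cells thinned to 500 UMIs, a depth at which 1.28 Flt3 UMIs are expected in the gated cells. In another draw 3 of 50 gated and 6 of 317 comparison cells had a Flt3 UMI. The exact expected shares were 2.55% and 2.58%, so Flt3 was too sparse to read at that depth. Wdfy4 stood at -0.08 with a marker sum of 3 or more. Lgmn was at 0 in both groups against the cDC2 gate. The gate held 50 cells (13.6% of 367). It held 23 (6.27% of 367) with a marker sum of 3 or more and 30 (8.17% of 367) without Irf8. When a UMI of Xcr1, Clec9a or Itgae was required it held 17 (5.09% of 334, the cells on Naaa or Irf8 alone being in neither group). Applied after thinning to 500 UMIs, it held 12 cells (2.25% of 533), with 369 genes higher and 1125 lower among 3089. Counts of genes past 2-fold were otherwise 49 higher and 130 lower (806 genes) with cells thinned to 500 UMIs. They were 19 and 75 (834 genes) with at least 50 UMIs per gene, and 274 and 670 (3304 genes) with at least 10. Against the cDC2 gate as comparison 70 were higher and 56 lower (676 genes). Log2 ratios that reversed were those of Ccl4, at -2.90 with a marker sum of 3 or more, -0.12 without Irf8 and -1.08 with the 3 receptor genes required, and of Bst2, at -0.47 and -0.51 under the last 2 of these. The others were Hmox1 at 2.12 when the gate followed thinning, Batf3 at -0.034 and Ifi205 at -0.13 in 1 thinning draw, which left 2 and 1 UMIs of them in the gated cells, and Apoe at 1.59 against the cDC2 gate. At the 3 gates where Ccl4 reversed, the 4 cells with plasmacytoid markers, among others, were not gated cells. In the gate without Irf8 these 4 cells counted among the comparison cells, and in the others they were in neither group. The cause of the reversals was not tested. Leaving out cells with plasmacytoid markers (46 gated cells, 87 genes higher, 280 lower) or with over 1% haemoglobin, both chosen after seeing the data, kept the counts within 1.5 times. The first of these also left out 11 comparison cells with 2 or more plasmacytoid UMIs. The limits are 1 library with no replicate, 50 cells, and a median of 2016 UMIs per cell, at which receptor and cytokine genes give few UMIs.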

Other observations

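Some comparison cells had as much Cst3 as the gated cells. At or above the lower quartile of the gated cells (175.7 UMIs per 10000) were 42 of the 317 comparison cells (13.2%), with 24 of the 49 cells (49.0%) at a marker sum of 1 and 18 of the 268 (6.72%) at 0. These 42 cells stood at 632 CPM of Psmb8, 481 CPM of Aif1 and 179 CPM of Batf3, against 353, 157 and 69.4 CPM in the other 275 comparison cells. Rnase6 was at 206 CPM in the 42 and 30.2 CPM in the 275, and Plac8 at 1525 CPM in the 42 and 498 CPM in the 275. Ccl5 was at 1099 CPM in the 42 cells, from 80 UMIs in 7 of them, and at 4220.2 CPM in the 275. The 42 cells were selected on Cst3 after the values had been seen, so these levels are a description without a test.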
